A study of Mus musculus with 6 samples.

Results

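The circadian clock was followed through 10 of its genes in epidermis of newborn mice with a targeted Hnrnpu gene: Arntl, Clock, Per1, Per2, Per3, Cry1, Cry2, Nr1d1, Nr1d2 and Dbp. They were taken by name, and all 10 were measured among the 12894 genes of the table (Arntl is also called Bmal1). Bulk RNA sequencing, which sums RNA over every cell of a sample, was done on epidermis of C57BL/6 mice at postnatal day 0. The 6 libraries were 3 controls and 3 labelled knockout, the latter made with loxP sites and a Cre recombinase. Control 1 had the genotype label wild type, while controls 2 and 3 were labelled "Heterogenous", read here as heterozygous. The labels name neither the line that drives Cre nor the deleted part of the gene, and they do not say whether the controls carried Cre. Nor do they give the hour of collection, so a shift of daily phase and a change of level cannot be told apart.

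The clock is a feedback loop of transcription that runs in nearly every cell, keratinocytes included, where it times proliferation and differentiation over the day. ARNTL pairs with CLOCK or its relative NPAS2 and activates genes through E-boxes, among them the Per, Cry, Nr1d and PAR bZIP genes, and the PER and CRY proteins then repress that pair. NR1D1 and NR1D2 (REV-ERB) repress, and the ROR receptors activate, genes with a ROR/REV-ERB response element (RRE) such as Arntl, while DBP, TEF and HLF activate genes with D-boxes and NFIL3 represses them. HNRNPU, also named SAF-A, is a nuclear RNA-binding protein that has been reported to bind the Arntl promoter.

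Several facts of the libraries bear on all values below, which are normalized counts per gene and log2 changes with their SE from limma, with p-values adjusted by Benjamini-Hochberg over all 12872 genes tested. Hnrnpu had 1450, 1318 and 1160 normalized counts in the controls and 1565, 1342 and 1036 in the libraries labelled knockout (log2 change −0.01 ± 0.20, limma adjusted p = 0.976), so the gene count showed no fall, and directions rest on the labels. By the annotation, 6.9% of the exonic bases of Hnrnpu overlap Cox20 on the opposite strand, and the part of such reads was not tested. Xist had 5656 and 4758 in knockout 2 and 3 and at most 3.27 elsewhere, so the libraries of female pattern were both labelled knockout. Knockout 1 lacked Xist at that level, as the controls did. On the log2 scale it differed from them by −2.54 in Per3, −1.26 in Dbp and −0.39 in Arntl. In Clock and Nr1d2 it differed by only −0.12 and −0.42. With all 3 libraries labelled knockout these 5 changes were −2.94, −1.23, −0.47, −0.45 and −0.91. The values of knockout 1 are those of 1 library with no spread of its own. The part of sex in the clock values was not tested. Keratinocyte markers were abundant in all 6 libraries, with sums of 785674 to 843371 normalized counts in the controls and 614732 to 836700 in the libraries labelled knockout. Of these 9 markers 2 rose, among them the desmosomal gene Dsg3 by 3.07 ± 0.53 in log2 (limma adjusted p = 0.00383), and 0 fell. The median log2 change of the 9 was −0.46, beside −0.02 over all genes tested, so the named riser does not stand for the list. With adjacent animal numbers as a block, where 44.9% of all genes passed, 3 of the 9 were lower. With library totals set equal, where 35% passed, 2 were lower. All 6 melanocyte markers were higher, with sums of 355 to 484 against 2571 to 4456. Of 6 fibroblast markers only 3, all collagen genes, were measured. All 3 were higher, with sums of 24.9 to 85.0 against 301 to 436. Of 8 leukocyte markers 6 were measured, with sums of 313 to 509 against 199 to 510 (2 rose and 2 fell). Of 4 Schwann cell markers 3 were measured, with sums of 213 to 429 against 390 to 1012 (1 of 2 tested rose). Of 4 endothelial markers only Pecam1 was measured, at 2.66 to 5.72 against 6.54 to 59.5. None of the 5 skeletal muscle and 4 adipocyte markers was among the genes of the table. The part of these cells in the clock values was not tested, and in bulk tissue fewer cells of a type and less RNA per cell cannot be told apart.

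Of the 10 clock genes, 2 fell in the libraries labelled knockout and 0 rose (limma, adjusted p of 0.05). Those that fell were Per3, to 13.1% of the control level, and Dbp, to 42.5%. The adjusted threshold was passed by 33.6% of all genes, 15.9% lower and 17.7% higher, so the share of clock genes called was not above that of genes at large. Without adjustment 3 of the 10 were lower and 0 higher at a limma p of 0.05. The share of all genes at that unadjusted p was not computed, so nothing is read from this count. The median log2 change of the 10 was −0.24, beside −0.02 over all genes tested. The groups did not overlap for 3 of the 10, all lower in the libraries labelled knockout, while 50.8% of all genes tested had groups that did not overlap, 25% lower and 25.8% higher. With adjacent animal numbers (1 control and 1 library labelled knockout each) as a block, 44.9% of all genes passed, and of the members 3 were lower and 1 higher.

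The sequences before the start sites of 3 members are given because they hold the letters through which the clock's loops are known to act on each other. They come from the RefSeq promoter table (build GRCm38.p6), which held 13 windows for 9 of the 10 members and 27 of the other clock genes described below. Each window runs from 250 bases before a start to 50 after it, and Per2 had none. The Per3 promoter (chr4:151044666-151044915, minus strand) has 2 D-boxes, in capitals. The Per1 promoter (chr11:69098699-69098948, plus strand) has 1 E-box in capitals, and the Cry1 promoter (chr10:85185055-85185304, minus strand) has an E-box and, on the opposite strand, an E-prime box. For Arntl, 30 bases around the RRE after the later of its 2 starts are shown (chr7:113207527-113207556, plus strand).
Per3: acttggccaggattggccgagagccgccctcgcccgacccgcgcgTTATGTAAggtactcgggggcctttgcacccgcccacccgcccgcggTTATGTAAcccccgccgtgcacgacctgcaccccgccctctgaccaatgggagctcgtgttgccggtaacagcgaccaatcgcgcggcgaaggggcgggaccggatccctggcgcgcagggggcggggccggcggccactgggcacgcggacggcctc
Per1: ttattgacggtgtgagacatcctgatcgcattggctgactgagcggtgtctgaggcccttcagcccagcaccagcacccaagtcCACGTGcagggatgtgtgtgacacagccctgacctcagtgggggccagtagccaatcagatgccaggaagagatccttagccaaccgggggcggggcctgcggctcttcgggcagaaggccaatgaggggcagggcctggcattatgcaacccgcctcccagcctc
Cry1: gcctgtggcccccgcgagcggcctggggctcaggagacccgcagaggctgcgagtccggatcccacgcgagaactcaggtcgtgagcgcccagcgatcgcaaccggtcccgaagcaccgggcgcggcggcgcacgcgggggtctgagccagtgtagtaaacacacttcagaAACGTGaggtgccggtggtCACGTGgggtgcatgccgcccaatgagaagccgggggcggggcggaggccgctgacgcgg
Arntl: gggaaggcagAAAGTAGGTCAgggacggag

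Motifs were searched on both strands of each whole window, and they did not overlap one another in the members. The D-box was TTATGTAA or TTACGTAA, found in 1.06% of 32851 windows, and in 0.0244% at least 2 times. In Per3 the matches began 205 and 158 bases before the start. The E-box was CACGTG, found in 7.15% of windows, and began 166 bases before the start in Per1 and 60 before it in Cry1. The E-prime box was CACGTT, found in 4.68% of windows, Cry1, Cry2 and Nr1d1 among them. The RRE, found in 0.384% of windows, began 27 bases after the start in Arntl. The CRE, TGACGTCA, was found in 1.79% of windows and in no window of a member. Such matches describe the letters only and are no evidence of binding in these libraries.

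Per3 encodes a period protein that is less needed for the rhythm itself than PER1 and PER2. Controls 1 to 3 held 155, 184 and 240 normalized counts of it, against 31.8, 11.9 and 35.5 in knockout 1 to 3. Every library labelled knockout lay far below every control. The log2 change was −2.94 ± 0.41 (SE, n = 3 and 3; limma adjusted p = 0.00159), a level of 13.1% of the controls (95% interval 6.79 to 25.1%). The estimated reads behind these values were 205, 208 and 293 in the controls and 34, 7 and 32 in the others. The fall was called in each of the 6 fits that left out 1 library, where the log2 change ranged from −3.21 to −2.46.

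Per1 and Per2, the period genes that light, hormones and cAMP also induce, passed the threshold in neither direction. Per1 had 923, 2629 and 2524 normalized counts in the controls and 2623, 3313 and 3118 in the libraries labelled knockout. Control 1 alone stood low, and the other 2 controls lay at the lower edge of the other group. The log2 change of Per1 was 0.71 ± 0.37 (limma adjusted p = 0.168), and 0.22 without control 1. In the fit with a replicate block for adjacent animal numbers, where 44.9% of all genes passed, Per1 was higher (adjusted p = 0.0475). Per2 had 153, 212 and 73.6 in the controls and 380, 228 and 57.7 in the libraries labelled knockout. Both groups thus spread widely, with control 3 and knockout 3, which have adjacent animal numbers, lowest in each. The log2 change of Per2 was 0.36 ± 0.66 (limma adjusted p = 0.697), with a 95% interval of 45.4 to 362% of the control level.

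**Figure D1:**
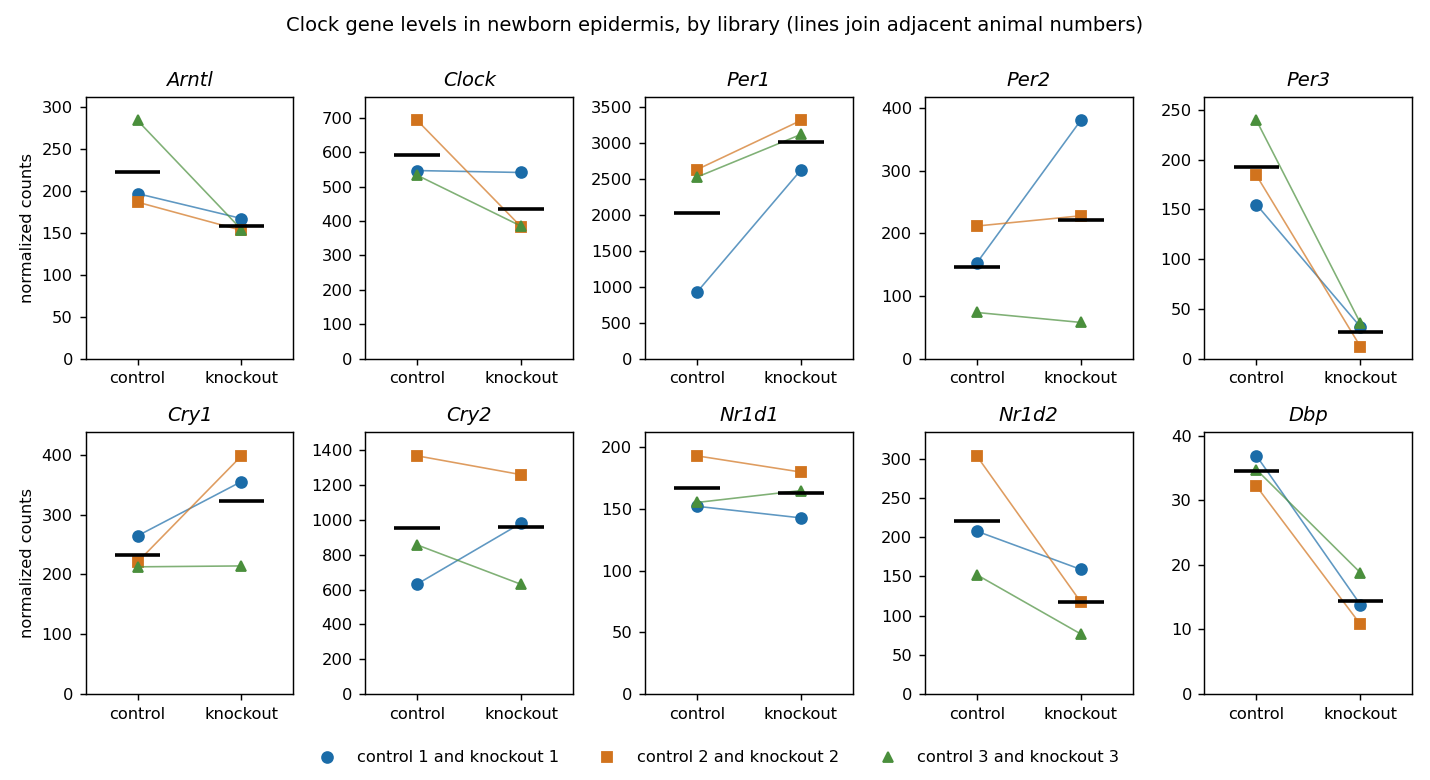
Normalized counts (linear axis from 0) of the 10 clock genes in the 3 controls and the 3 libraries labelled knockout, with lines joining libraries of adjacent animal numbers and a black bar at each group mean. Per3 and Dbp lie lower in all 3 libraries labelled knockout, as does Arntl by a narrow margin, while the groups overlap for the other 7.

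The cryptochromes, which with the PER proteins block the activator pair, showed no called change. Cry1 had 264, 220 and 213 normalized counts in the controls and 355, 398 and 214 in the libraries labelled knockout. Knockout 3 lay within the controls and the other 2 above them. The log2 change was 0.43 ± 0.26 (limma adjusted p = 0.225), and without knockout 3 it was 0.70 and passed the threshold (adjusted p = 0.0335). Cry2 had 632, 1369 and 857 in the controls and 982, 1261 and 630 in the libraries labelled knockout, so the groups spanned nearly the same range. Its log2 change was 0.02 ± 0.33 (limma adjusted p = 0.962), with a 95% interval of 60.0 to 172% of the control level.

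The activator pair showed no called change, though the mean of each gene was lower in the libraries labelled knockout. Arntl had 197, 187 and 284 normalized counts in the controls and 167, 153 and 154 in the libraries labelled knockout. The groups did not overlap, although control 3 stood apart from the other controls. The log2 change was −0.47 ± 0.22 (limma adjusted p = 0.131), a level of 72.4% of the controls (95% interval 51.1 to 102%). Without control 3 it was −0.28. Clock had 547, 692 and 533 in the controls and 541, 383 and 385 in the libraries labelled knockout, where knockout 1 lay among the controls. Its log2 change was −0.45 ± 0.21 (limma adjusted p = 0.128), with a 95% interval of 52.8 to 102% of the control level.

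These calls depended on the scaling. With library totals set equal, which moved the median of all genes to −0.36 on the log2 scale, and where 35% of all genes passed, 5 members were lower, Arntl, Clock and Nr1d2 besides Per3 and Dbp (log2 changes −0.81, −0.79 and −1.25, with limma adjusted p = 0.0377, 0.0443 and 0.0313). Without that scaling the median of all genes was −0.02, and Arntl, Clock and Nr1d2 were at −0.47, −0.45 and −0.91. Their distance below the median was thus nearly the same in both settings. With library totals set equal Per1 remained higher by 0.37 without passing (limma adjusted p = 0.418).

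The REV-ERB receptors differed from each other in their values. Nr1d1 was nearly level, with 152, 193 and 155 normalized counts in the controls and 143, 180 and 165 in the libraries labelled knockout, and a log2 change of −0.04 ± 0.205 (limma adjusted p = 0.907). Its interval of 70.6 to 135% of the control level bounds the difference. Nr1d2 had 208, 304 and 152 in the controls and 159, 117 and 76.5 in the libraries labelled knockout. Only knockout 1 lay within the range of the controls. The log2 change of Nr1d2 was −0.91 ± 0.34 and missed the threshold (limma adjusted p = 0.0678), but passed it with the replicate block (0.016) and without knockout 1 (0.0437). Whether the 2 receptors changed differently was not tested. By the annotation, 8.5% of the exonic bases of Nr1d1 overlap Thra, the thyroid hormone receptor gene on the opposite strand. Thra fell by 0.73 ± 0.20 on the log2 scale (adjusted p by limma = 0.0241; 288, 388 and 288 to 192, 176 and 208 normalized counts). Strand use in the counting is not given in the sources used here, so reads in the overlap cannot be told apart.

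Dbp, the PAR bZIP factor whose RNA swings widely over the day in many tissues, was the least abundant member per kilobase of exon in the controls. It had 36.9, 32.2 and 34.7 normalized counts in the controls and 13.8, 10.8 and 18.8 in the libraries labelled knockout. The controls were close together and all 3 libraries labelled knockout lay below them. The log2 change was −1.23 ± 0.38 (limma adjusted p = 0.0376), with a 95% interval of 23.2 to 77.8% of the control level. Only 48.8, 36.3 and 42.5 estimated reads supported the control values, and 14.8, 6.3 and 16.9 the others. It was no longer called without control 1, 2 or 3 (adjusted p = 0.116, 0.103 and 0.112), without knockout 1 or 2 (0.0646 and 0.0692) and with quantile normalization (0.0566). The change itself stayed between −1.43 and −1.05 when 1 library was left out. Sphk2, a sphingosine kinase gene on the opposite strand, overlaps 18.0% of the exonic bases of Dbp. It was more abundant and fell as well, from 694, 761 and 1159 to 434, 429 and 496 normalized counts (log2 change −0.91 ± 0.22, limma adjusted p = 0.0159). The part of Sphk2 reads in the Dbp values was not tested.

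The members also differed in level. Per kilobase of exon, Per1 was the most abundant in the controls, with 360 ± 170 normalized counts per kilobase (SD, n = 3), followed by Cry2 with 151 ± 60. Cry1 had 69.6 ± 8.3, Nr1d1 54.2 ± 7.4, Clock 43.0 ± 6.4, Nr1d2 40.9 ± 14.2, Arntl 29.6 ± 7.1, Per2 24.9 ± 11.8, Per3 20.1 ± 4.5 and Dbp 11.6 ± 0.8. Between neighbours in this order the control values did not overlap for Cry2 and Cry1, Cry1 and Nr1d1, and Per3 and Dbp. The other neighbours were not separated beyond their spread. In the libraries labelled knockout Per3 was last, with 2.75 ± 1.32 normalized counts per kilobase, next to Dbp with 4.83 ± 1.35, and these 2 overlapped. Exon lengths came from an annotation of another build (GRCm38) than the authors' mm39.

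In ratios between members within a library a common scaling factor cancels, apart from the 1 added to each value before logs. They are given as values with no test. The log2 ratio of Per3 to Cry1, both targets of the activator pair, was −0.77, −0.26 and 0.17 across the controls, against −3.44, −4.95 and −2.56 in knockout 1 to 3. All 3 of the latter lay well below the controls. The log2 ratio of Dbp to Arntl, whose rhythms run in opposite phase, was −2.39, −2.50 and −2.998 in the controls and −3.51, −3.71 and −2.97 in the libraries labelled knockout, so knockout 3 lay within the control range. The difference of the group means was −0.77, and −0.59 with 5 added in place of 1. For Nr1d1 to Arntl, also of opposite phase, the log2 ratio was −0.37, 0.05 and −0.87 in the controls and −0.23, 0.23 and 0.10 in the others. For Per2 to Arntl the ratio was −0.37, 0.18 and −1.94 against 1.18, 0.57 and −1.40. The last 2 ratios overlapped between the groups, and in each adjacent pair the library labelled knockout had the higher value.

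**Figure D2:**
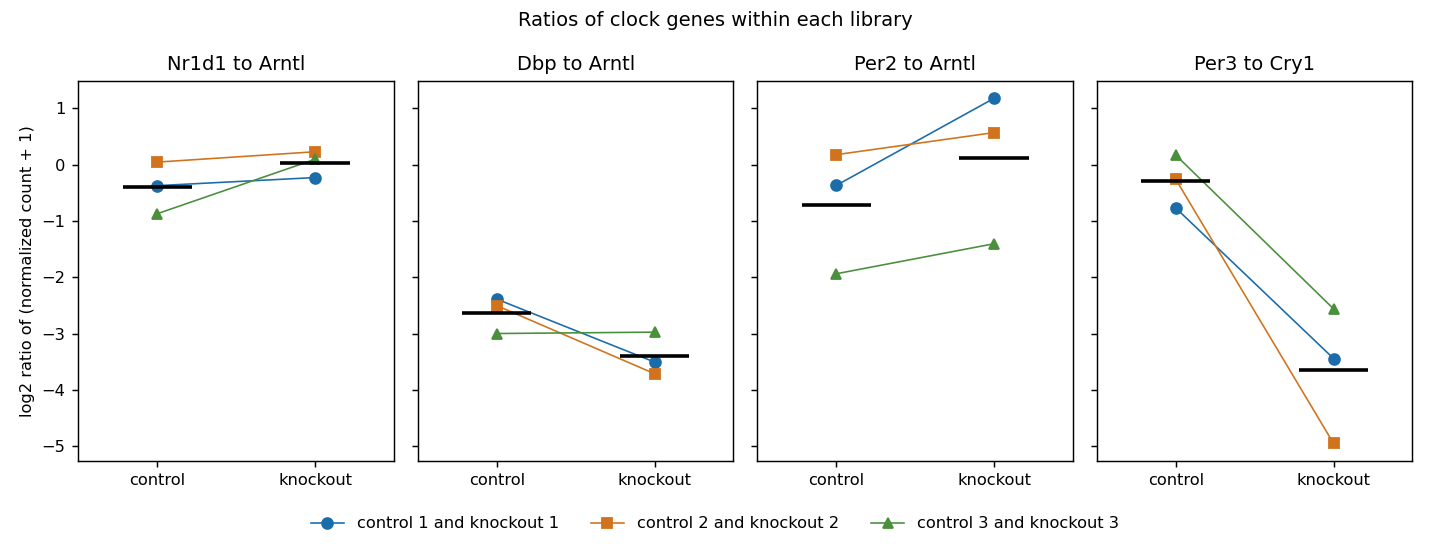
Log2 ratios of 4 pairs of clock genes within each library, on 1 shared axis, for the 3 controls and the 3 libraries labelled knockout, with lines joining adjacent animal numbers and black bars at the group means. Per3 to Cry1 falls from a mean of −0.28 to −3.65, while the other 3 ratios overlap between the groups.

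Other parts of the clock were followed as a further list. Of 33 further components listed, 31 were measured and tested, and 12 passed the threshold, 4 higher and 8 lower, beside 33.6% of all genes. Their median log2 change was −0.23, close to the −0.24 of the members, beside −0.02 over all genes. The activator partner Npas2, which can stand in for CLOCK, fell by 2.65 ± 0.38 on the log2 scale (adjusted p by limma = 0.00173), from 79.3, 48.7 and 76.8 to 7.48, 10.2 and 12.2 normalized counts. No library labelled knockout came near a control. The values in knockout 1 to 3 rest on few reads, as 1 estimated read stood for 0.93, 1.70 and 1.11 normalized counts there. In each of them Npas2 was below Dbp. Clock itself, with its 383 to 541 normalized counts there, changed less in value than its relative, a difference that was not tested.

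Rora, a ROR receptor that activates Arntl through the RRE, fell. It went from 9978, 10635 and 11390 to 4324, 4668 and 5871 normalized counts, a log2 change of −1.12 ± 0.18 (limma adjusted p = 0.00302). The groups lay far apart. The corepressor genes of REV-ERB were also lower, by 0.73 ± 0.19 for the deacetylase Hdac3 and 0.47 ± 0.15 for Ncor1 (limma adjusted p = 0.0185 and 0.0421). The call of Hdac3 was lost without control 1, 2 or 3 (0.0621, 0.0606 and 0.0671). That of Ncor1 was lost without any single control (0.0898, 0.129 and 0.138) or library labelled knockout (0.0605, 0.0607 and 0.0757).

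The relatives of Dbp fell with it, so that all 3 PAR bZIP genes were lower. Tef went from 577, 653 and 602 to 250, 102 and 131 normalized counts, a log2 change of −2.02 ± 0.31 (limma adjusted p = 0.00232). Both RefSeq windows of Tef held an E-box, 127 and 138 bases before the respective start, which may be 1 site. Of the 27 other clock genes with a window 5 held an E-box, among them Tef and Bhlhe41, which rose. Hlf went from 62.7, 53.1 and 26.2 to 18.7, 13.6 and 12.2, a log2 change of −1.54 ± 0.43 (adjusted p = 0.0266). In Hlf control 3 lay near the other group. The call of Hlf was lost without control 1 or 2 (0.109 and 0.105) and without knockout 2 or 3 (0.0543 and 0.0513). Nfil3, the repressor at the same D-boxes, had 134, 200 and 352 in the controls and 346, 536 and 241.7 in the libraries labelled knockout, with a log2 change of 0.75 ± 0.39 (limma adjusted p = 0.169).

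The E-box repressors Bhlhe40 and Bhlhe41 (DEC1 and DEC2), which compete with the activator pair for its sites, rose. Bhlhe41 went from 19.6, 21.0 and 20.2 to 85.3, 150 and 102 normalized counts, a log2 change of 2.38 ± 0.30 (limma adjusted p = 9.91e-04). By the annotation, 19.0% of the exonic bases of Bhlhe41 overlap Gm43909 on the opposite strand, a gene not measured here. The part of such reads in the Bhlhe41 values was not tested. Bhlhe40 went from 494, 1130 and 987 to 1751, 1888 and 1332, a log2 change of 0.999 ± 0.31 (adjusted p = 0.0382). As for Per1, control 1 was the lowest control. Without control 1 the change of Bhlhe40 was 0.63 and not called (0.0868). The call was also lost without control 3, knockout 1 or knockout 2 (0.0605, 0.0891 and 0.101), with library totals set equal (0.104) and with quantile normalization (0.0805). The repressor Ciart showed no called change, with 17.4, 84.1 and 64.4 in the controls and 43.0, 23.8 and 38.8 in the others.

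Among enzymes that act on clock proteins, the casein kinase 1 gene Csnk1e rose by 1.22 ± 0.22 on the log2 scale (adjusted p by limma = 0.0042). The deubiquitinase gene Usp2, a known output of the clock, rose by 2.23 ± 0.33 (adjusted p = 0.00199), from 549, 729 and 587 to 2508, 5065 and 1933 normalized counts. Csnk2a2, a catalytic subunit of casein kinase 2, fell by 1.40 ± 0.26 (limma adjusted p = 0.00486), while the other catalytic gene Csnk2a1 had a log2 change of −0.09. The kinase Gsk3b and the coactivator Crebbp, the most abundant components that did not pass, differed by 0.12 ± 0.16 and 0.07 ± 0.18. Npas2, Rora, Tef, Bhlhe41, Csnk1e, Usp2 and Csnk2a2 were called in each of the 6 fits that left out 1 library. Without control 1 or control 2, 5 components were lower in place of 8, while over all genes 1172 and 1121 were lower in place of 2049. With the replicate block 12 were lower and 6 higher, where 44.9% of all genes passed.

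**Figure D3:**
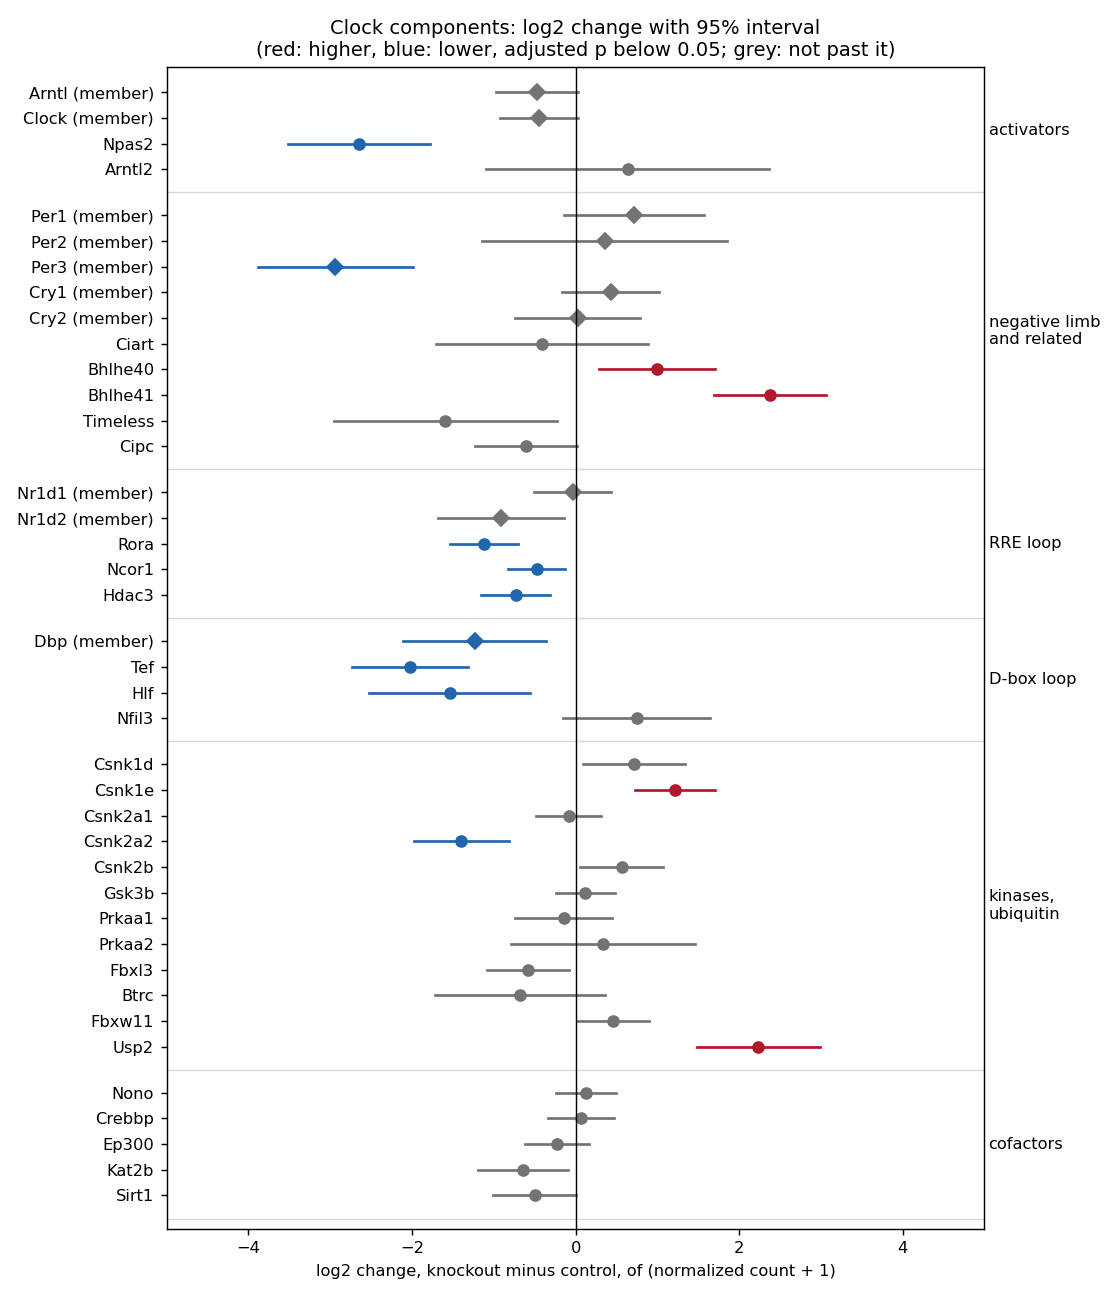
Log2 change, libraries labelled knockout minus controls, of the 10 members (diamonds) and other clock components (circles), with bars for the 95% interval and colour for genes past the adjusted threshold of 0.05. The PAR bZIP genes, Rora, Npas2 and Per3 lie left of 0, and Bhlhe41, Usp2 and Csnk1e right of it.

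Genes downstream of the clock moved in both directions. Of 21 listed outputs 18 were tested, with 5 higher and 2 lower, beside 17.7% and 15.9% of all genes, and a median log2 change of −0.06. The cell cycle inhibitor Cdkn1a rose by 2.23 ± 0.39 on the log2 scale and Pdk4, a kinase that limits pyruvate use, by 3.82 ± 0.71 (limma adjusted p = 0.00377 and 0.0052). Pdk4 changed by 3.17 without knockout 2 and by 4.58 without knockout 3. The quinone-binding gene Coq10b rose by 1.45 ± 0.35 and the cytochrome P450 reductase gene Por by 1.34 ± 0.34 (adjusted p = 0.0143 and 0.0191). The call of Coq10b was lost without control 1 or 2 (0.0533 for each), and that of Por without control 1 or knockout 2 (0.0516 and 0.055). Both Cdkn1a and Pdk4 also answer other signals than the clock.

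Hormone and cAMP signals, which set the phase of peripheral clocks largely through Per1, were followed by 2 further lists. Of 14 glucocorticoid response genes 11 were tested, with 1 lower (Fkbp5) and 1 higher (Dusp1), beside 33.6% of all genes called in either direction. Their median log2 change was −0.08. Fkbp5, a chaperone gene induced by glucocorticoids, had 915, 2080 and 1561 normalized counts in the controls and 450, 286 and 379 in the libraries labelled knockout (log2 change −1.97 ± 0.31, limma adjusted p = 0.00249). Control 1, lowest for Per1, was also the lowest control for Fkbp5, though not for every gene of this list. Dusp1, a phosphatase of MAP kinases, rose by 0.82 ± 0.26 (adjusted p = 0.0404). That call was lost without control 1, 2 or 3 (0.0779, 0.128 and 0.105), without knockout 2 or 3 (0.105 and 0.0929), with library totals set equal (0.119) and with quantile normalization (0.275). The next in rank, Errfi1 and Mt2, differed by 0.62 ± 0.24 and 1.65 ± 0.66 (limma adjusted p = 0.0785 and 0.0842), and passed with the replicate block (0.0196 and 0.00203). Mt2 changed by 2.44 without knockout 3 and was then called (0.00506). With the block 4 of the 11 were higher and 1 lower, where 44.9% of all genes passed. Of 14 genes of cAMP and CREB signalling 12 were tested, with 1 higher and 1 lower, beside the same 33.6% of all genes, and a median log2 change of 0.23. Junb, an immediate early gene, rose by 1.097 ± 0.24, and the CREB coactivator Crtc1 fell by 1.001 ± 0.28 (adjusted p = 0.0096 and 0.0254). The call of Junb was lost with quantile normalization (0.099), and that of Crtc1 without control 1 or 3 (0.0787 and 0.0938). Nr4a3 and Creb1 differed by 0.69 ± 0.38 and −0.39 ± 0.22 without passing.

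The genes whose pattern over the 6 libraries was most like that of a member were found by the root mean square difference of log2 values, each gene centred on its own mean, among 6398 genes of at least median level. For Dbp they were AU022252, Map4k3 and Ubtf, at 0.07, 0.09 and 0.10. For Arntl they were 4930438A08Rik, Esrp2 and Ampd3, at 0.09, 0.09 and 0.10. For Nr1d1 they were Fam32a, Ahcyl1 and Pmpca, at 0.03, 0.05 and 0.05. None of these 9 was on a clock list, but the members were left out of the search. Clock genes below the median level could not appear either.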

How the data were processed

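Normalized counts for 12894 Ensembl genes in 6 libraries, a signal that is never negative, were deposited by the authors. The submitters' processing notes name build mm39, Partek 9.0.20.0202 and TopHat2 2.1.0. Normalization and strand setting are not given in the sources. Low values were mostly whole multiples, within 0.02, of 1 step per library (81.6 to 83.8% of values up to 20 reads), which gave an estimated 6460000 to 9120000 reads per library and the reads per gene quoted. The rest were fractional, so no count model was used. Symbols matched for 12771 IDs.

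Genes above 1 in at least 3 libraries (12872) were tested as log2(value + 1) with limma 3.58.1 in R 4.3.3 (mean-variance trend, two-sided, Benjamini-Hochberg at 0.05), so fold changes of low genes are understated. The fit was tested on simulated data. P-values measure the spread between libraries, taken as separate animals from their title numbers. Deviations from group means correlated by 0.37, 0.23 and 0.36 within adjacent animal numbers (216 with 217, 241 with 242, 250 with 251), so these were used as a block in an alternative. Other alternatives changed the pseudocount, filter, scaling, variance model and libraries.

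Results of 1 further clock component and 1 marker gene are not reported here by name, though list counts and sums include them. Members and lists were chosen with earlier results of these data known. Named genes were all members, up to 12 further components past the threshold and the 2 most abundant that were not, and up to 4 per other list by adjusted p. Thra, Sphk2, Ciart, Nfil3, Csnk2a1, Xist, Dsg3 and genes under other observations were named after their values were seen.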

Additional observations from a re-analysis of the deposited data

How the results depend on the processing

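Over the 18 alternatives, Per3 kept its direction and was called in all but control 1 alone against the libraries labelled knockout (log2 change −2.65, limma adjusted p = 0.118). Members called lower numbered 5 with library totals set equal, 1 with quantile normalization or with knockout 1 alone, 0 with control 1 alone, and 1 to 2 when 1 library was left out. Members called higher numbered 1 with the replicate block and 0 to 1 when 1 library was left out. Further clock components called lower numbered 5 to 8 when 1 library was left out, and 0 were called in either direction with control 1 alone, where 301 of all genes passed. All genes called numbered 4328, 2485 with knockout 1 alone, 5781 with the replicate block, and 2644 to 4509 when 1 library was left out. With library totals set equal they split into 1440 higher and 3065 lower, against 2279 and 2049. In the fits with 1 library alone, that library has no spread of its own and is assumed to vary like the other group, so their p-values rest on the other group only. The replicate block ended no call among the named genes and added those of Per1, Nr1d2, Errfi1 and Mt2. The members' lowest estimated reads were 6.3 for Dbp and 7 for Per3, both in knockout 2.

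Among the named genes, signs turned for Per2, Cry2, Nr1d1, Hnrnpu, Gsk3b and Crebbp, which passed neither before nor in those settings, and the cause was not tested. When 1 library was left out, Per2 ranged from −0.21 to 1.14, Cry2 from −0.23 to 0.32, Nr1d1 from −0.11 to 0.074, Hnrnpu from −0.15 to 0.15 and Crebbp from −0.0030 to 0.20. Cry2 was at −0.32 with equal totals, −0.19 with quantile normalization and −0.15 with array weights. Hnrnpu was at 0.018 with array weights and 0.26 with knockout 1 alone, and Nr1d1 at 0.088 with control 1 alone. With equal totals and quantile normalization Gsk3b was at −0.22 and −0.30 and Crebbp at −0.27 and −0.34, and Crebbp was at −0.031 with control 1 alone.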

Other observations

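Among the outputs of the clock, 3 more genes passed the threshold and were named after their values were seen. Noct, a deadenylase-related gene also called nocturnin, rose by 1.59 ± 0.41 in log2 (adjusted p by limma = 0.0191), from 348, 634 and 665 to 1036, 2998 and 1287 normalized counts, a call lost without control 1. Cirbp, a cold-inducible RNA-binding protein gene, fell by 1.11 ± 0.32 (adjusted p = 0.0287), from 486, 503 and 254 to 186, 241.6 and 136. That call was lost without control 1, control 2, knockout 1 or knockout 3. Fmo2, a flavin monooxygenase gene, fell by 1.74 ± 0.58 (adjusted p = 0.0491), a call that held in only 1 of the 6 fits leaving out 1 library, that without knockout 3. Fmo2 changed by −1.001 without knockout 2 and by −2.28 without knockout 3.

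Within the groups, Per2 was lowest of its group in control 3 and in knockout 3, and so were Wee1, a cell cycle kinase gene and known clock output, with 178, 285 and 106 normalized counts in the controls and 167, 201 and 95.4 in the libraries labelled knockout, and Nr1d2. Control 1 was the lowest control for Per1, Ciart, Bhlhe40, Fkbp5 and Tsc22d3, which had 189 there against 765 and 584 in controls 2 and 3. Tsc22d3 is a glucocorticoid-induced gene. The rest of the glucocorticoid list was mixed. Control 1 was the lowest control for Klf9, Zbtb16 and Errfi1, but not for Dusp1, Nr3c1, Sgk1, Mt1, Mt2 and Cdkn1c, and for Dusp1 it was the highest. Control 1 was also the only control labelled wild type. These patterns were picked after the values were seen and were not tested.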
